A study of Homo sapiens with 18 samples.

Results

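The HOXA, HOXB and HOXC clusters were examined in A673, an established Ewing sarcoma cell line, through 29 HOX genes in 3 windows of the hg19 genome. Every deposited peak that shared at least 1 bp with a window was taken. The HOXA window was the 140 kb of chromosome 7 that begin at position 27120001, the HOXB window the 210 kb of chromosome 17 from 46600001 and the HOXC window the 120 kb of chromosome 12 from 54330001. They held 116 of the 45354 peaks of 5 chromatin immunoprecipitation sequencing (ChIP-seq) lists, namely 67 in HOXA, 25 in HOXB and 24 in HOXC. Each of 2 replicates had a list for RING1B and for H2Aub1, the histone H2A that carries a single ubiquitin, and EWSR1-FLI1 had 1 list without replicate. All came from cells with no treatment, grown in RPMI medium with serum. A673 cells carry the fusion protein EWSR1-FLI1, so all groups share it. The other 13 of the 18 samples, among them inputs, BMI1 and CBX7, and cells labelled shCTRL and shRING1B, were not analysed here. Results hold for a single cell line, and whether replicates were independent cultures is not stated, so their spread may be technical.

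HOX genes encode homeodomain transcription factors that give cells their position along the body axis. In each cluster the genes lie in the order in which they act, from the head end (low numbers) towards the tail end (high numbers). Polycomb complexes keep HOX genes silent in cells that should not express them. RING1B is the ubiquitin ligase of Polycomb repressive complex 1 (PRC1) and places the H2Aub1 mark on nucleosomes, which is often spread over a whole cluster. In the HOXA and HOXB windows the low-numbered genes lie at low coordinates (HOXA2, which helps pattern the hindbrain and the second pharyngeal arch, and HOXB1, a hindbrain gene), and HOXA13 and HOXB13 lie at the high end. HOXC runs the other way, from HOXC13, a gene of hair and nail formation, at low coordinates to HOXC4 at high ones. This order came from RefSeq. An hg19 annotation was not used here, so peaks are placed by their position in a window and are not assigned to single genes.

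Promoter sequences are shown because some forms of PRC1 are brought to unmethylated CG-rich DNA, and HOX promoters differ widely in this feature. The RefSeq table of GRCh38.p14 held promoters for 12 of the 29 genes (9 of HOXA, 1 of HOXB, 2 of HOXC), in 18 different windows of 300 bases. The first gene, a middle gene and the last gene of the HOXA window are printed as the 250 bases before the start of the gene, on the minus strand and read 5′ to 3′, with each CG in capitals. Their GRCh38.p14 positions are chr7:27102684-27102933 for HOXA2, chr7:27156676-27156925 for HOXA7 and chr7:27200092-27200341 for HOXA13, and these are not to be set beside the hg19 peaks.
HOXA2: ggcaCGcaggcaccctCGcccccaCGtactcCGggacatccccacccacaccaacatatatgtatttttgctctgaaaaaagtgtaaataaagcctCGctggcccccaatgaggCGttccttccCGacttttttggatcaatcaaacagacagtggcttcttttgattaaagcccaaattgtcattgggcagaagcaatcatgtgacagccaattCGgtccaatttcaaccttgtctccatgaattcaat
HOXA7: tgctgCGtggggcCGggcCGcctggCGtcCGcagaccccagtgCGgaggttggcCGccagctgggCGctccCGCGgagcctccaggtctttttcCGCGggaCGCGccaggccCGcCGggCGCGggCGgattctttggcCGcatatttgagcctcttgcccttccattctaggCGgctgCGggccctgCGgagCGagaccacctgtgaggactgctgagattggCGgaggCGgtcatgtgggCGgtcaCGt
HOXA13: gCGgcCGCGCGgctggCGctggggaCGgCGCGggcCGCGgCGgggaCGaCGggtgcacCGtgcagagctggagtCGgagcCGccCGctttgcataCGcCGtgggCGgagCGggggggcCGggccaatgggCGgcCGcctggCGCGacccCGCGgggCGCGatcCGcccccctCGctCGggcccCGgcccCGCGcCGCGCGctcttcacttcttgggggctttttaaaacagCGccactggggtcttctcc
The motif searched was CG, which reads the same on both strands. The printed stretches held 8 CG in HOXA2, 28 in HOXA7 and 40 in HOXA13. Over the whole 300 bases HOXA13 had 44 CG, more than 95.8% of the 34943 promoters in the table, whereas HOXA2 had 11, more than 45.4%. The 16 HOXA promoter windows had a median of 21.5 CG and ranged from 0, at a start of HOXA3, to 44. At least 1 CG was found in 94.4% of the 18 windows and in 96% of all promoters of the table. Above the table's median of 14 CG lay 12 of the 18 windows (66.7%), beside 48.8% of all promoters. Windows are not single genes. Several of those in HOXA were alternative starts of HOXA3, with 0 to 29 CG, and HOXB and HOXC had 1 window each. These shares therefore describe mainly HOXA. The peaks could not be laid over these promoters, because the builds differ.

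RING1B peaks were found in the HOXA window in both replicates, while neither replicate had a peak in the HOXB or the HOXC window. HOXA held 7 RING1B peaks in replicate 1 and 5 in replicate 2, covering 9.32 kb (6.66% of the window) and 5.04 kb (3.6%). For comparison, 6.87% of the 30353 tiles of 100 kb on the autosomes and X touched a RING1B peak of replicate 1 and 10.6% touched one of replicate 2. With tiles of 200 kb, close to the length of the HOXB window, these shares were 12.5% and 18.7%. A window without a peak was thus the usual case at both lengths.  In replicate 1, 31 of the 100 kb tiles (0.102%) were covered at least as much as HOXA, and 136 (0.448%) were in replicate 2. The nearest RING1B peak lay 249 kb (replicate 1) and 115 kb (replicate 2) from the HOXB window, and 566 kb and 161 kb from the HOXC window.

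**Figure D1:**
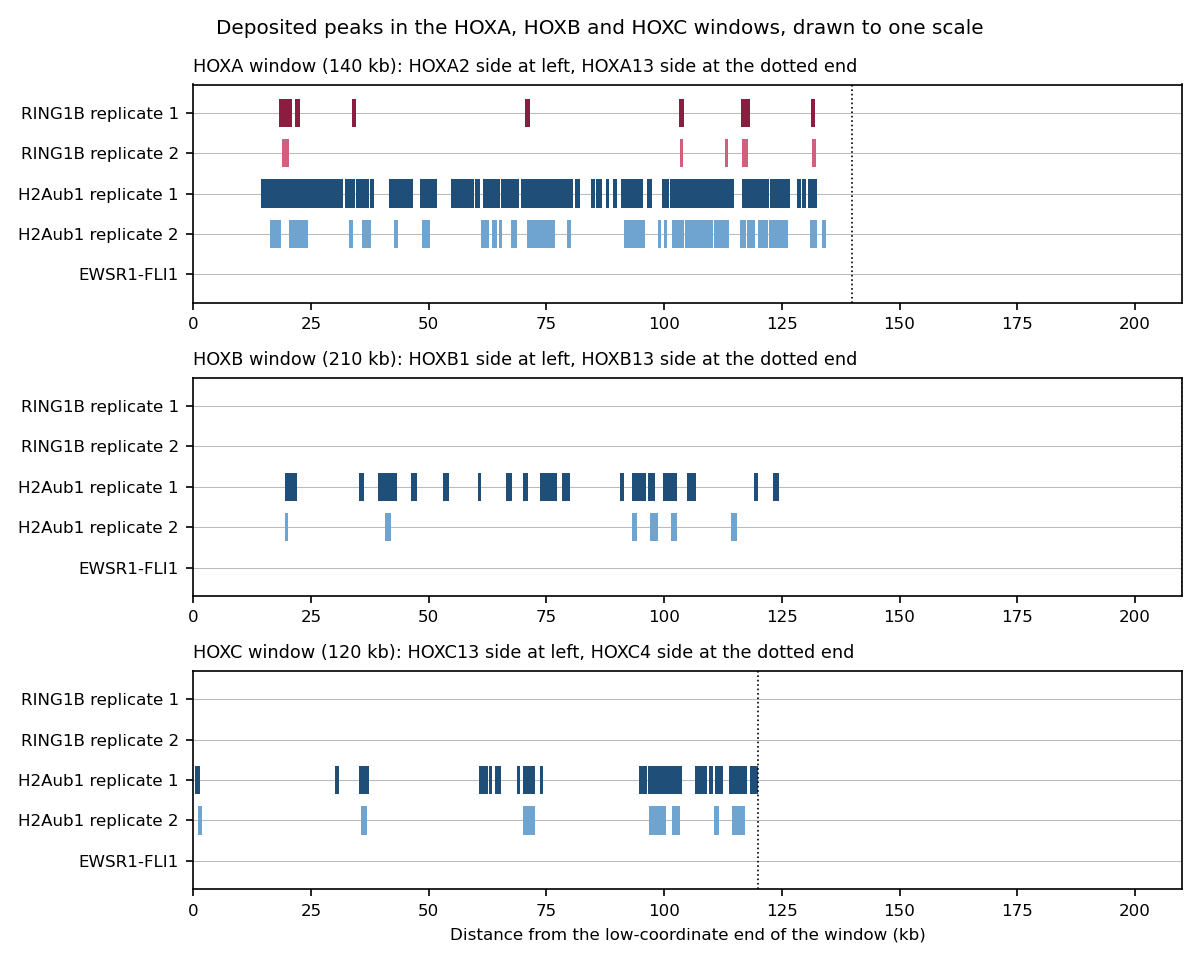
Deposited peaks (filled boxes, 1 row per list) along each window, in kb from its low-coordinate end and drawn to the same scale. The dotted line marks the window's end (HOXB fills the whole axis). RING1B appears in HOXA alone, with 7 and 5 peaks, H2Aub1 covers 67.9% of HOXA in replicate 1 and 37.2% in replicate 2 and less of HOXC and HOXB, and EWSR1-FLI1 has no peak in any window.

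The highest-scoring RING1B peaks of HOXA lay towards both ends of the window in replicate 1 and on the HOXA13 side in replicate 2. Weaker peaks of replicate 1 were spread along the window, whereas replicate 2 had a long stretch without a peak. On the HOXA2 side, replicate 1 had a peak from 27138156 to 27140885 with a score of 291.66, which ranked 340 of 2573, and replicate 2 had one from 27138941 to 27140344 with a score of 61.21, which ranked 2888 of 3945. This peak thus stood high in replicate 1 and low in replicate 2. Scores are the authors' own per peak, on a scale not given in the sources used here, and were compared only as ranks within a list. On the HOXA13 side the peak from 27236347 to 27238293 scored 286.13 in replicate 1 (rank 346). Its counterpart from 27236442 to 27237913 scored 230.62 in replicate 2 (rank 397), so this site stood high in both. Both sites together held the only 2 peaks of replicate 1 above that list's median of 88.9, and the HOXA13-side site held the only peak of replicate 2 above its median of 78.2.

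The other RING1B peaks of HOXA scored below the medians of their lists. Peaks were found in both replicates from 27223199 to 27224332 (scores 56.28 in replicate 1 and 65.80 in replicate 2) and from 27251111 to 27252183 (56.14 and 59.08), again on the HOXA13 side. Replicate 1 alone had peaks from 27141675 to 27142582 (72.63), from 27153702 to 27154462 (77.84) and from 27190564 to 27191549 (77.51). Replicate 2 alone had a peak from 27232865 to 27233557 (69.34). The scores of peaks found in 1 replicate therefore lay above those of the 2 weakest shared sites. The longest break between RING1B peaks was 36101 bp in replicate 1 (27154463 to 27190563) and 83136 bp in replicate 2 (27140345 to 27223480).

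H2Aub1 covered most of the HOXA window in replicate 1 and a smaller part of it in replicate 2. Replicate 1 had 29 peaks covering 95.1 kb (67.9% of the window) and replicate 2 had 26 peaks covering 52.1 kb (37.2%). Only 6 of the 30353 tiles of 100 kb (0.0198%) were covered as much in replicate 1 and 14 (0.0461%) in replicate 2. Between the first and the last peak, 80.4% of the bases were covered in replicate 1 and 44.1% in replicate 2. The mark stopped 14.4 kb and 16.3 kb short of the low-coordinate end of the window, and the adjoining 140 kb on that side held no H2Aub1 peak in either replicate. Beyond the HOXA13 end, 12.4% and 10.6% of the next 140 kb were covered.

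The widest H2Aub1 peak of HOXA, 17543 bp from 27134357 to 27151899 in replicate 1, ranked 16 in width among 26423 peaks and spanned the RING1B site on the HOXA2 side. The highest-scoring peak lay towards the HOXA13 end in both replicates. It ran from 27221167 to 27230712 in replicate 1 (score 1784.15, rank 51 of 26423) and from 27224435 to 27230395 in replicate 2 (763.43, rank 58 of 10268), where it was also the widest of the window (5961 bp). The score of the HOXA peaks ranged from 62.78 to 1784.15 with a median of 191 in replicate 1, beside 84.7 for the whole list. In replicate 2 it ranged from 50.01 to 763.43 with a median of 149, beside 78.7. Above their list's median lay 24 of the 29 peaks and 19 of the 26.

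Coverage in HOXA was cut by many short breaks in replicate 1 and by longer ones in replicate 2. Replicate 1 had 28 breaks with a median of 450 bp, the shortest of 1 bp and the longest of 3290 bp (27158281 to 27161570). Replicate 2 had 25 breaks with a median of 1516 bp and a longest of 11336 bp (27200164 to 27211499). Of the replicate 1 breaks 4 reached 2 kb, and 3 of these had no base covered in replicate 2 either. All 10 breaks of replicate 2 that reached 2 kb were partly or fully covered in replicate 1. When peaks at most 5 kb apart were joined, replicate 1 gave a single domain of 118 kb from 27134357 to 27252527, the fifth longest (rank 5) of 13972 such domains, the longest of which had 159 kb. Replicate 2 gave 4 domains, the longest of 42.8 kb on the HOXA13 side (27211500 to 27254320), with rank 15 of 6330. With a limit of 2 kb these became 5 domains of up to 32.9 kb in replicate 1 (rank 34 of 17270) and 11 of up to 15 kb in replicate 2 (rank 81 of 7380).

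**Figure D2:**
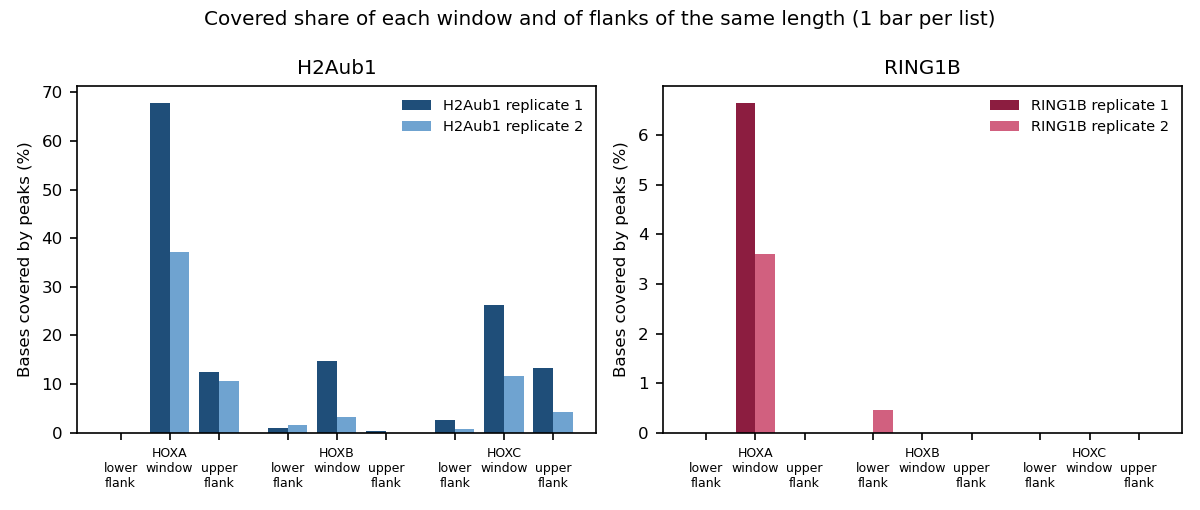
Percent of bases covered by peaks in each window and in flanks of the same length below and above it, for the H2Aub1 lists (left) and the RING1B lists (right, on a smaller axis). Each bar is 1 list. HOXA reached 67.9% and 37.2% for H2Aub1, HOXC 26.2% and 11.7%, and HOXB 14.7% and 3.26%.

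HOXC carried less H2Aub1 than HOXA, and most of it lay on the HOXC4 side. There were 17 peaks covering 31.4 kb (26.2% of the window) in replicate 1 and 7 peaks covering 14.1 kb (11.7%) in replicate 2. Among 100 kb tiles, 0.712% and 0.768% were covered as much. The 60 kb nearer to HOXC4 were covered to 46% in replicate 1 and 20% in replicate 2, against 6.45% and 3.49% of the 60 kb nearer to HOXC13. HOXA showed a smaller difference between its sides in replicate 1, with 65.6% on the HOXA2 side and 70.2% on the HOXA13 side, and a larger one in replicate 2, with 23.9% and 50.5%.

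A single site dominated HOXC. It was the peak from 54426505 to 54433777 in replicate 1 (7273 bp, score 1368.79, rank 114) and the peak from 54426730 to 54430353 in replicate 2 (3624 bp, 441.75, rank 229). A second strong peak nearer to the HOXC4 end ran from 54443740 to 54447603 (588.15) in replicate 1 and from 54444429 to 54447234 (344.92) in replicate 2. Single peaks on the HOXC13 side were shared as well, such as the one from 54365189 to 54367230 in replicate 1 (182.71) and from 54365723 to 54366944 in replicate 2 (117.02). Replicate 1 had 16 breaks with a longest of 28733 bp (54331476 to 54360208), and replicate 2 had 6 with a longest of 33878 bp (54331845 to 54365722). In each replicate 3 breaks reached 10 kb, and 2 of the 3 in replicate 1 had no base covered in replicate 2. Coverage ran on past the HOXC4 end of the window, where 13.3% and 4.18% of the next 120 kb were covered, so the window does not hold the whole marked stretch.

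As a share of the whole window, HOXB had the sparsest H2Aub1 of the 3 clusters, and its peaks had the lowest highest and median scores. Replicate 1 had 19 peaks covering 30.9 kb (14.7% of the window) and replicate 2 had 6 peaks covering 6.84 kb (3.26%). Among 100 kb tiles, 1.99% and 3.86% were covered as much. The highest score was 262.27 in replicate 1 (46699707 to 46702805, rank 2874) and 129.01 in replicate 2 (46701454 to 46702654, rank 2312), both at the same site. The widest peak had 3525 bp in replicate 1 (46673682 to 46677206) and no counterpart in replicate 2, whose widest had 1664 bp (46696966 to 46698629). The median score was 110 and 73.6, beside list medians of 84.7 and 78.7, and 10 of the 19 peaks of replicate 1 and 3 of the 6 of replicate 2 lay above these.

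Peaks of HOXB ended well before the HOXB13 end of the window. The last one stopped 85.6 kb from it in replicate 1 and 94.6 kb in replicate 2. HOXB13 is set apart from HOXB9 by a long stretch of DNA without other HOX genes, and the window includes this stretch. Breaks numbered 18 in replicate 1, with a longest of 13169 bp (46621937 to 46635105), and 5 in replicate 2, with a longest of 51363 bp (46641917 to 46693279). That longest break of replicate 2 held 13398 bp covered in replicate 1. Counted from the first to the last peak only, 29.4% and 7.12% of HOXB were covered. The corresponding shares were 26.3% and 12.1% in HOXC, so on this count HOXB stood slightly above HOXC in replicate 1 and below it in replicate 2.

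The order of the clusters over the whole windows, HOXA above HOXC above HOXB, was the same in both H2Aub1 replicates. Relative to the share of the genome covered by each list (1.31% and 0.481%), HOXA was covered 51.9 and 77.3 times as much, HOXC 20 and 24.4 times, and HOXB 11.2 and 6.77 times. On the same scale RING1B covered HOXA 64.3 and 23.4 times as much as its share of the genome, which was above H2Aub1 in replicate 1 and below it in replicate 2. Mean H2Aub1 coverage was 52.6% ± 21.7 in HOXA, 19% ± 10.2 in HOXC and 8.98% ± 8.1 in HOXB (SD, n = 2). The replicate ranges of HOXB and HOXC overlapped, since replicate 1 of HOXB (14.7%) exceeded replicate 2 of HOXC (11.7%). HOXA did not overlap either of them. In percent of the window, without regard to the length of the lists, H2Aub1 exceeded RING1B by 47.4 points in HOXA, 19 in HOXC and 8.98 in HOXB, where RING1B was 0 in the last 2. Each had p = 0.333 in a two-sided exact permutation test of 2 against 2 lists, which is the smallest p that this design allows. Without H2Aub1 replicate 1 the differences were 32.1, 11.7 and 3.26 points.

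**Figure D3:**
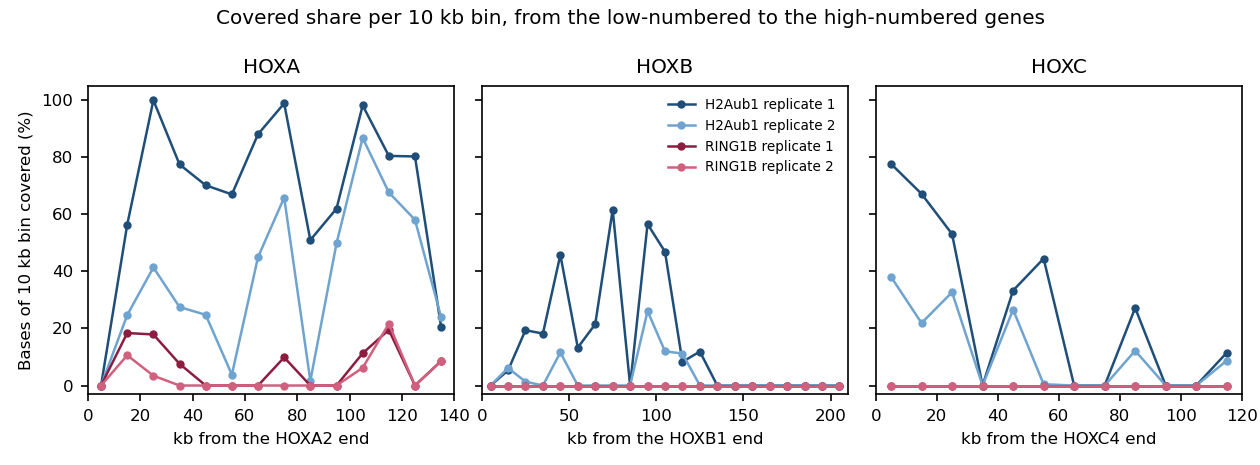
Percent of bases covered in each 10 kb bin, plotted from the low-numbered to the high-numbered genes of each cluster (HOXC is turned round so that HOXC4 is at left). Points are bins and lines join the bins of 1 list. H2Aub1 in HOXA peaks at 100% in replicate 1 and 86.8% in replicate 2, in HOXC it is highest at the HOXC4 end in both, and in HOXB it is 0 over the last 8 bins. RING1B lies along 0 in HOXB and HOXC.

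The profiles of the H2Aub1 replicates were partly alike, and least so in HOXB. Across 10 kb bins, coverage of replicate 1 and replicate 2 had a Spearman correlation of 0.78 in HOXA (14 bins), 0.59 in HOXB (21 bins) and 0.92 in HOXC (12 bins). Over bins with H2Aub1 in either replicate the values were 0.73 (13 bins), 0.24 (11 bins) and 0.64 (7 bins), so in HOXB the value over all bins rested on bins that were empty in both. The best covered HOXB bin of replicate 1 (61.6%) was at 0 in replicate 2. Bins of a window are neighbours and share the same 2 libraries, so these values are descriptive. In HOXA the best covered bin was fully covered in replicate 1 (100%, from 27140001 to 27150000), where replicate 2 had 41.4%. The best covered bin of replicate 2 (86.8%, from 27220001 to 27230000) was at 98.2% in replicate 1. Between the end bins, the one with least H2Aub1 in both replicates lay from 27200001 to 27210000, with 51% and 1.63%. No H2Aub1 in either replicate was found in 1 of the 14 bins of HOXA, 5 of the 12 of HOXC and 10 of the 21 of HOXB.

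H2Aub1 replicates shared more in HOXA and HOXC than in HOXB. Bases covered in both made up 49.5% of the bases covered in either in HOXA (48.8 of 98.4 kb), 42.4% in HOXC (13.6 of 32 kb) and 15.6% in HOXB (5.09 of 32.6 kb). Over the whole lists this share was 26.2%, so HOXA and HOXC lay above it and HOXB below. A difference in covered length limits this share. Replicate 1 covered 1.83 times as much as replicate 2 in HOXA, 2.23 times in HOXC and 4.52 times in HOXB. Of the bases of replicate 2, 93.6% in HOXA, 96.3% in HOXC and 74.4% in HOXB were also covered in replicate 1. Over the whole list this was 77.3%, so HOXB lay close to it on this count. With the highest-scoring 50% of each list HOXA (48.2%) and HOXC (48.4%) were level. Of the longer list, replicate 1, 18 of 29 peaks in HOXA touched replicate 2 (62.1%, Wilson interval 44 to 77.3%), 6 of 17 in HOXC (35.3%, 17.3 to 58.7%) and 6 of 19 in HOXB (31.6%, 15.4 to 54%), beside 26.6% of the whole list. Of replicate 2, 24 of 26, 7 of 7 and 5 of 6 peaks touched replicate 1, beside 77.3%, which put HOXC above HOXA on this count. Intervals cover counting error only, and neighbouring peaks are not independent. The intervals of the 3 clusters overlapped.

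Peaks of the longer list that had no counterpart were mostly the weaker ones. In HOXA the 18 shared peaks of replicate 1 had a median score of 432 and a median width of 3650 bp, against 96.3 and 908 bp for the other 11. In HOXC the medians were 219 against 63.8, and in HOXB 177 against 84.1. The whole list showed the same order, with 184 against 74.1. An exception in HOXA was the peak from 27174825 to 27179704, with a score of 572.19 and 4880 bp, which had no counterpart in replicate 2. The list of replicate 1 was also longer as a whole (26423 against 10268 peaks), and the headers of the H2Aub1 lists carry different tags (IMIM in replicate 1, HSJD in replicate 2) that are not explained in the sources used here. The part of either in these differences was not tested.

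RING1B replicates shared 4 sites in HOXA. Of the peaks of replicate 1, 4 of 7 touched replicate 2 (57.1%, 25 to 84.2%), beside 62.6% of the list, and of replicate 2, 4 of 5 touched replicate 1 (80%, 37.6 to 96.4%), beside 40.9%. Bases covered in both made up 40.4% of those covered in either, beside 33.4% over the whole lists. The Wilson interval of replicate 1 includes the share of its list, and that of replicate 2 (lower bound 37.6%) does too. Both intervals cover counting error only, and neighbouring peaks are not independent, so this is a description and not a test. The 4 shared sites had lengths of 1404, 621, 1472 and 639 bp.

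**Figure D4:**
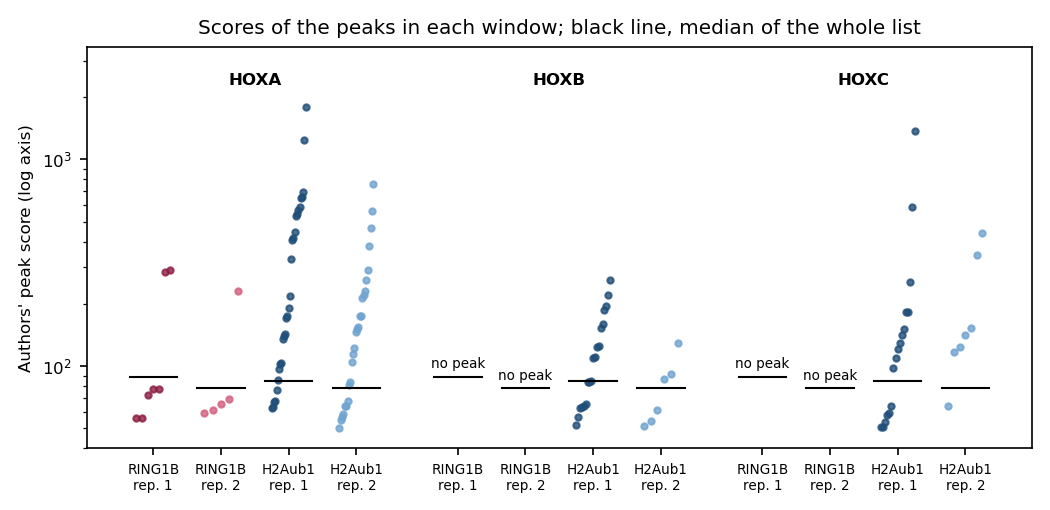
Authors' score of every RING1B and H2Aub1 peak in each window, on a log axis, with points of a list sorted from low to high and the black line at the median of the whole list. H2Aub1 scores reach 1784.15 in HOXA and 1368.79 in HOXC but 262.27 in HOXB, and 2 RING1B peaks of replicate 1 and 1 of replicate 2 lie above their list's median.

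Each RING1B peak of HOXA touched H2Aub1, which was less usual in the lists as a whole. All 7 peaks of replicate 1 touched both H2Aub1 lists, beside 24.1% of all RING1B peaks of that replicate for H2Aub1 replicate 1 and 14.8% for replicate 2. All 5 peaks of RING1B replicate 2 did so too, beside 21.3% and 12.6%. When 50% of the shorter peak had to be shared, H2Aub1 replicate 2 met 71.4% and 80% of the peaks of RING1B replicates 1 and 2. When the RING1B centre had to lie within 500 bp of an H2Aub1 peak, it met 85.7% and 80%. With H2Aub1 replicate 1 all stayed at 100% in both settings. Since H2Aub1 covered much of HOXA, a peak placed anywhere between the first and the last H2Aub1 peak would often touch it, so these counts say little about where RING1B lay within the cluster. Conversely, most H2Aub1 peaks had no RING1B. In H2Aub1 replicate 1, 6 of 29 HOXA peaks (20.7%) touched RING1B replicate 1 and 5 (17.2%) touched replicate 2, beside 2.52% and 3.47% of the list. In H2Aub1 replicate 2 the counts were 8 of 26 (30.8%) and 6 (23.1%), beside 4.08% and 5.38%. Most of these shares depended on the settings. With the highest-scoring 50% of each list, the 4 shares in this order were 8.33%, 4.17%, 21.1% and 10.5%. When the centre of the H2Aub1 peak had to lie within 500 bp of a RING1B peak, they were 6.9%, 6.9%, 23.1% and 7.69%. In HOXB and HOXC, 0 of the 25 and 0 of the 24 H2Aub1 peaks touched RING1B, which follows from the absence of RING1B peaks there.

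H2Aub1 peaks of HOXA that touched RING1B in either replicate were wider than the others. In H2Aub1 replicate 1 the 7 such peaks had a median width of 5599 bp and a median score of 543, against 1146 bp and 142 for the other 22. In replicate 2 the 9 such peaks had 2468 bp and 221, against 1245 bp and 115 for the other 17. A wider peak has more room to meet a RING1B peak, and the groups overlapped in both measures. The highest-scoring peak of H2Aub1 replicate 2, with 763.43, touched no RING1B peak.

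The RING1B site on the HOXA2 side lay over a dip of the mark in 1 replicate. In H2Aub1 replicate 1 both RING1B peaks at this site were fully covered by the 17543 bp peak. In H2Aub1 replicate 2 the mark had a break from 27138739 to 27140254 (1516 bp) that held the centres of both RING1B peaks. H2Aub1 replicate 2 covered 44.5% of the RING1B peak of replicate 1 and 6.41% of that of replicate 2. The RING1B site on the HOXA13 side also touched a break in each H2Aub1 list. There 84.8% of the RING1B peak of replicate 1 was covered by H2Aub1 replicate 1 and 87.6% by replicate 2. For the RING1B peak of replicate 2 the shares were 86.4% and 83.6%. Centres of RING1B peaks lay in a break of H2Aub1 replicate 2 for 2 of 7 and 1 of 5 peaks, and of H2Aub1 replicate 1 for 0 of both. Between its first and last HOXA peak, H2Aub1 covered 44.1% of the bases in replicate 2 and 80.4% in replicate 1. Breaks thus made up most of that stretch in replicate 2, so these counts do not place RING1B at breaks in particular. The breaks named here were singled out after their positions were seen.

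Over bases found in both replicates of each, RING1B filled 4136 bp of HOXA and H2Aub1 48753 bp, and 2381 bp were shared. This was 57.6% of the RING1B bases and 4.88% of the H2Aub1 bases. Without H2Aub1 replicate 2 the first share was 95.2%, and for the union of replicates it was 99.8%. In HOXC 13561 bp and in HOXB 5088 bp carried H2Aub1 in both replicates, with 0 bp of RING1B in either. These lists hold peaks past the authors' threshold, so RING1B below that threshold in HOXB or HOXC cannot be read from them.

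EWSR1-FLI1 had no peak in any of the windows, in a list of 2145 peaks. The nearest lay 713 kb from HOXA (27973056 to 27974155, score 153.38), 246 kb from HOXC (54083095 to 54084003, 60.74) and 115 kb from HOXB (46484198 to 46485203, 89.03). The last of these overlapped the RING1B peak of replicate 2 that was nearest to HOXB (46484315 to 46485276, score 134.65). The lists covered 0.0728% of the genome for EWSR1-FLI1 and 0.104% and 0.154% for RING1B. The EWSR1-FLI1 list held 2145 peaks, against 30353 tiles of 100 kb and 15169 of 200 kb. Most windows of such lengths therefore hold none, though the share of tiles with an EWSR1-FLI1 peak was not computed. There was 1 EWSR1-FLI1 sample and no replicate.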

How the data were processed

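ChIP-seq peak lists of A673 cells were analysed for RING1B, H2Aub1 (2 replicates each) and EWSR1-FLI1 (1 sample). Bowtie and the hg19 build are named in the submitters' processing notes, and for RING1B and H2Aub1 also mm9, without its role. Peak names in the rows begin with MACS. Not given in the sources used here are the caller's version, the filters and the use of input. The authors deposited 1 list for each of these samples, with a score per peak and 50 as the lowest score over all lists. Read depth is unknown, so no depth-based precision can be given.

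Peaks were clipped to the windows and merged where they touched. A break was any gap of 1 bp or more between merged stretches. Chromosome lengths of hg19 came from pyranges 0.1.4 (Python 3.11.15, scipy 1.17.1). The interval functions were tested on simulated data, with exact results in 50 of 50 runs. Shares of peaks have 95% Wilson intervals. Regions named are the highest-scoring and the widest peak of each cluster and list, the RING1B peaks, the longest breaks and the nearest EWSR1-FLI1 peaks. The members, windows and lists were chosen with earlier results of these data known. Joined domains, the position of RING1B at breaks, the comparison of peaks with and without a counterpart, correlations without empty bins, and other peaks named were added after the values were seen. The planned assignment of peaks to genes and a list of HOX cofactor genes needs an hg19 annotation and was not run.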

Additional observations from a re-analysis of the deposited data

How the results depend on the processing

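The sign of the coverage difference between H2Aub1 and RING1B is fixed in HOXB and HOXC, where RING1B has no peak, and it held in HOXA in the alternatives run, in percent of the window. Leaving out 1 list gave 32.1 to 62.8 points in HOXA, 3.26 to 14.7 in HOXB and 11.7 to 26.2 in HOXC. With RING1B and H2Aub1 paired by replicate number (replicate block), the differences were 47.4, 8.98 and 19 points, with p = 0.5 in an exact sign-flip permutation test, the smallest it allows. No source states that a number marks a shared culture or day. Breaks depended on the smallest gap counted. With gaps of 500 bp or more, HOXA had 13 in H2Aub1 replicate 1. With gaps of 2 kb or more it had 4 and 10 in H2Aub1 replicates 1 and 2, and HOXC had 6 in replicate 1. For the highest-scoring 50% of each list, RING1B had 1 break in replicate 1 and 0 in replicate 2, HOXB had 9 and 2 for H2Aub1, and HOXC had 10 in replicate 1. Shared bases of the H2Aub1 replicates, for that 50% and for windows 20 kb shorter at both ends, were 48.2% and 47.7% in HOXA, 16.6% and 14.2% in HOXB, and 48.4% and 45.2% in HOXC. For RING1B in HOXA they were 31.5% and 33.3%. The share of RING1B bases with H2Aub1 was 70% and 71.5% in these settings, 99.8% for the union, and 62.4% to 95.2% with 1 list left out. Of the alternatives for shares of peaks and of tiles, 57 stayed within the 95% Wilson interval of the reported value and 23 did not. These intervals treat neighbouring peaks as independent and are wide where a window held few peaks. Staying within one therefore says little about stability. Unknown depth limits any reading of absent peaks.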
